A study of Mus musculus with 16 samples.

Results

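The 10 genes described here carry the core of the retinoic acid pathway. They are the nuclear receptors Rara, Rarb and Rarg, the genes of supply Aldh1a2 and Aldh1a3 (synthesis), Dhrs3 (return of the precursor to retinol) and Stra6 (retinol uptake), and the degradation genes Cyp26a1, Cyp26b1 and Cyp26c1. They were chosen by name, as members of the pathway, out of 26180 gene symbols with a curated RefSeq transcript. For each gene, peaks of all 6 deposited lists were collected within 2500 bp on either side of every curated start site and over the gene body, in the mouse build GRCm38.

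The lists came from chromatin immunoprecipitation followed by sequencing (ChIP-seq) for the histone mark H3K4me3, the histone mark H3K27me3 and Suz12, in mouse R1 embryonic stem cells (ESCs) that carry MycER, a fusion of Myc and an oestrogen receptor domain that is inactive until 4-hydroxytamoxifen (OHT) is added. LIF-ESCs grew in 100 units per ml of LIF, the cytokine that maintains mouse ESCs in culture. Myc-ESCs grew without LIF in 50 nM OHT. Of the 16 libraries 4 were inputs and the rest came in pairs, yet each culture and antibody has a single peak list. No value below therefore has a replicate spread, no test was possible, and each difference is a comparison of a pair of lists. Both cultures carry the transgene, so LIF withdrawal and OHT cannot be told apart. The study's main MycER line carries a point mutant of Myc, and an independent clone served as a control. The labels of the ChIP-seq libraries do not name the clone. Whether a list rests on both of its libraries is not given in the sources used here.

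The lists held 32469 (LIF-ESC) and 30345 (Myc-ESC) H3K4me3 peaks, 3120 and 16717 H3K27me3 peaks, and 11305 and 13907 Suz12 peaks. Depth is unknown, and a deeper library gives more and longer peaks, so the part of depth in any difference between cultures was not tested. Start sites of all 6 ESC marker genes examined (Pou5f1, Nanog, Sox2, Zfp42, Esrrb and Klf4) had H3K4me3 in both cultures. Of these, Esrrb also had Suz12 in both cultures and H3K27me3 in Myc-ESCs, and Klf4 had Suz12 in Myc-ESCs.

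Retinoic acid is made from vitamin A in steps catalysed by retinol and retinaldehyde dehydrogenases, binds receptors of the RAR family that sit on DNA as dimers with RXR, and is oxidised by the Cyp26 enzymes. Added to ESCs, it is a classical inducer of differentiation, and Rarb and Cyp26a1 are among its best known direct targets through response elements next to their start sites. H3K4me3 marks start sites of active and poised genes, and Suz12 is a subunit of PRC2, the Polycomb complex that deposits H3K27me3. Start sites that carry H3K4me3 and H3K27me3 together are called bivalent.

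The sequences at these start sites are shown first, because the start sites of Rarb and Cyp26a1 lie next to the element through which retinoic acid receptors bind. RefSeq promoter entries, which run from 250 bases before to 50 bases after a start site in GRCm38.p6, were found for 9 of the 10 genes, with 18 entries in all. Aldh1a3 has no entry. The classical response element was searched on both strands as 2 copies of AGGTCA or its variants (AGTTCA, the related GGGTCA and, likewise, GGTTCA), in any combination, in the same orientation, 5 bases apart. It occurred in 32 of 32851 RefSeq promoters (0.0974%). Rarb and Cyp26a1 were the members that held it, in capitals in these promoters, each written 5′ to 3′ along transcription.
Rarb, chr14:16575427-16575726, minus strand: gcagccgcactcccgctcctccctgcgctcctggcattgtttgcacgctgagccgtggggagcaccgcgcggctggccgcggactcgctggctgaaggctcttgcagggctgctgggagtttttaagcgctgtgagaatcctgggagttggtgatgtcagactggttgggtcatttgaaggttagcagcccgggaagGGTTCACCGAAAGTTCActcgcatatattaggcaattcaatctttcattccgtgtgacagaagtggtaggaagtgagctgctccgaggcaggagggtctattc
Cyp26a1, chr19:37697558-37697857, plus strand: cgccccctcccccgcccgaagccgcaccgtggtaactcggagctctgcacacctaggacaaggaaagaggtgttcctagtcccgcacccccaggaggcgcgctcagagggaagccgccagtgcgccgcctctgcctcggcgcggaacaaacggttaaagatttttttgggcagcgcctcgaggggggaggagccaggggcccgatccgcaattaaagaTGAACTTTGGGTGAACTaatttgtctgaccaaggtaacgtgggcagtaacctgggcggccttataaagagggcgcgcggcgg
In Rarb the element lay at positions -53 to -37 from the start site, on the strand of the gene. In Cyp26a1 it lay at -32 to -16, on the opposite strand.

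Over the whole 5001-base windows around start sites, the same element occurred in 526 of 31601 start sites (1.66%). Among the members 4 copies were found, written here along the strand that reads as a direct repeat, with the recognition elements in capitals.
Rarb, chr14:16575513-16575529: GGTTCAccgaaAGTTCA
Cyp26a1, near copy, chr19:37697776-37697792: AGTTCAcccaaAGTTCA
Cyp26a1, distant copy, chr19:37695909-37695925: GGGTCAcaggcGGGTCA
Rara, chr11:98960008-98960024: AGTTCAgcaagAGTTCA
The distant Cyp26a1 copy lay at -1899 to -1883 from its start site, and the Rara copy at -463 to -447 from the start site at position 98960471. H3K4me3 covered the copies of Rarb and Rara and the near copy of Cyp26a1 in both cultures, 3 of 4, against 34.9% and 35.2% of the 458 distinct copies in all start-site windows. Those 458 copies lie anywhere in the windows of marked and unmarked genes. They were not matched to the member copies for distance to a start site. In LIF-ESCs, Suz12 covered 1 of the 4 copies, the near copy of Cyp26a1. In Myc-ESCs it covered 3, both Cyp26a1 copies and the Rarb copy. Of all 458 copies, 6 (1.31%) lay under a LIF-ESC Suz12 peak and 17 (3.71%) under a Myc-ESC Suz12 peak. No member copy lay under an H3K27me3 peak, and of the 458 copies 0 and 1 did in LIF-ESCs and Myc-ESCs. A related repeat with a spacing of 2 bases was in 0.268% of promoters and in no member promoter. The E-box CACGTG, the sequence bound by Myc with its partner Max, was in 7.15% of promoters and, among members, in those of the first 2 Rara start sites, which overlap and share the same copy. In the 5001-base windows the E-box was in 49.4% of start sites. All members except Rarb and Cyp26b1 had it in at least 1 window. That is a count of genes, and several members have more than 1 start site, some with overlapping windows. It therefore cannot be set against the share of start sites.

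The promoters also differed in CpG content. The observed over expected CpG ratio, which is near 1 in unmethylated CpG islands, had a median of 0.38 over all 32851 promoters. It was 1.11 in Aldh1a2, 0.89 in Cyp26a1, 0.82 at the first Dhrs3 start site and 0.70 in Rarb. It was 0.31 in Cyp26b1, 0.24 in Cyp26c1 and 0.22 at the first Stra6 start site. The highest and one of the lower values are shown, each along transcription.
Aldh1a2, chr9:71215539-71215838, plus strand: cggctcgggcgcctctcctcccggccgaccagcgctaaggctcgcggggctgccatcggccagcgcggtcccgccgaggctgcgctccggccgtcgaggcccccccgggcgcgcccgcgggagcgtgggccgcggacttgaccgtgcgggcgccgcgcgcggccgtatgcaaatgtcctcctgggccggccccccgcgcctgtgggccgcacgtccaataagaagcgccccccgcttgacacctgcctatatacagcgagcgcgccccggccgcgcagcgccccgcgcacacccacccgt
Cyp26b1, chr6:84593761-84594060, minus strand: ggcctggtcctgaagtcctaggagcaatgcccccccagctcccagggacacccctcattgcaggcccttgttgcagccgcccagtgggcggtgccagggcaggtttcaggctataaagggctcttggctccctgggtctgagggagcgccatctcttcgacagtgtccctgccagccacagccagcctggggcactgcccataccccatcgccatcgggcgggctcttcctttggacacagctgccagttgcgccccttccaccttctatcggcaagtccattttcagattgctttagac
The Aldh1a2 promoter held 50 CpG dinucleotides and the Cyp26b1 promoter 9. Over the 5001-base window the ratio of Cyp26c1 was 0.46, the 75.2nd percentile of start sites, and its longest Myc-ESC Suz12 peak in that window lay 531 to 2931 bp inside the gene.

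H3K4me3 lay at the start sites of 9 of the 10 genes in LIF-ESCs and of the same 9 in Myc-ESCs, against 62.2% and 63.3% of all genes. The exception in both was Cyp26b1. No member had H3K4me3 in only 1 culture, which is near the low shares of all genes, 2.35% for Myc-ESCs only and 1.21% for LIF-ESCs only. Suz12 lay at 5 members in LIF-ESCs, Aldh1a2, Aldh1a3, Dhrs3, Cyp26a1 and Cyp26c1, against 12.1% of all genes. In Myc-ESCs it lay at these 5 and at Rarb, against 14.6% of all genes. Rarb was thus the member with Suz12 in Myc-ESCs only, which held for 3.82% of all genes, and no member had Suz12 in LIF-ESCs only, against 1.28%.

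H3K27me3 lay at 2 members in LIF-ESCs, Aldh1a2 and Aldh1a3, against 3.82% of all genes. In Myc-ESCs it lay at 5, with Rarb, Cyp26a1 and Cyp26c1 added, against 10.7%. H3K27me3 in Myc-ESCs only therefore held for 3 of 10 members and 7.65% of all genes, and in LIF-ESCs only for no member and 0.733% of all genes. This count depended on the length of the lists. When only the 3120 Myc-ESC peaks with the highest scores were kept, the number in the LIF-ESC list, H3K27me3 remained in Myc-ESCs at Aldh1a2 and Cyp26a1, and Cyp26a1 alone had it in Myc-ESCs only. The shares of all genes above belong to the full lists, and none is given for lists of equal length.

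**Figure D1:**
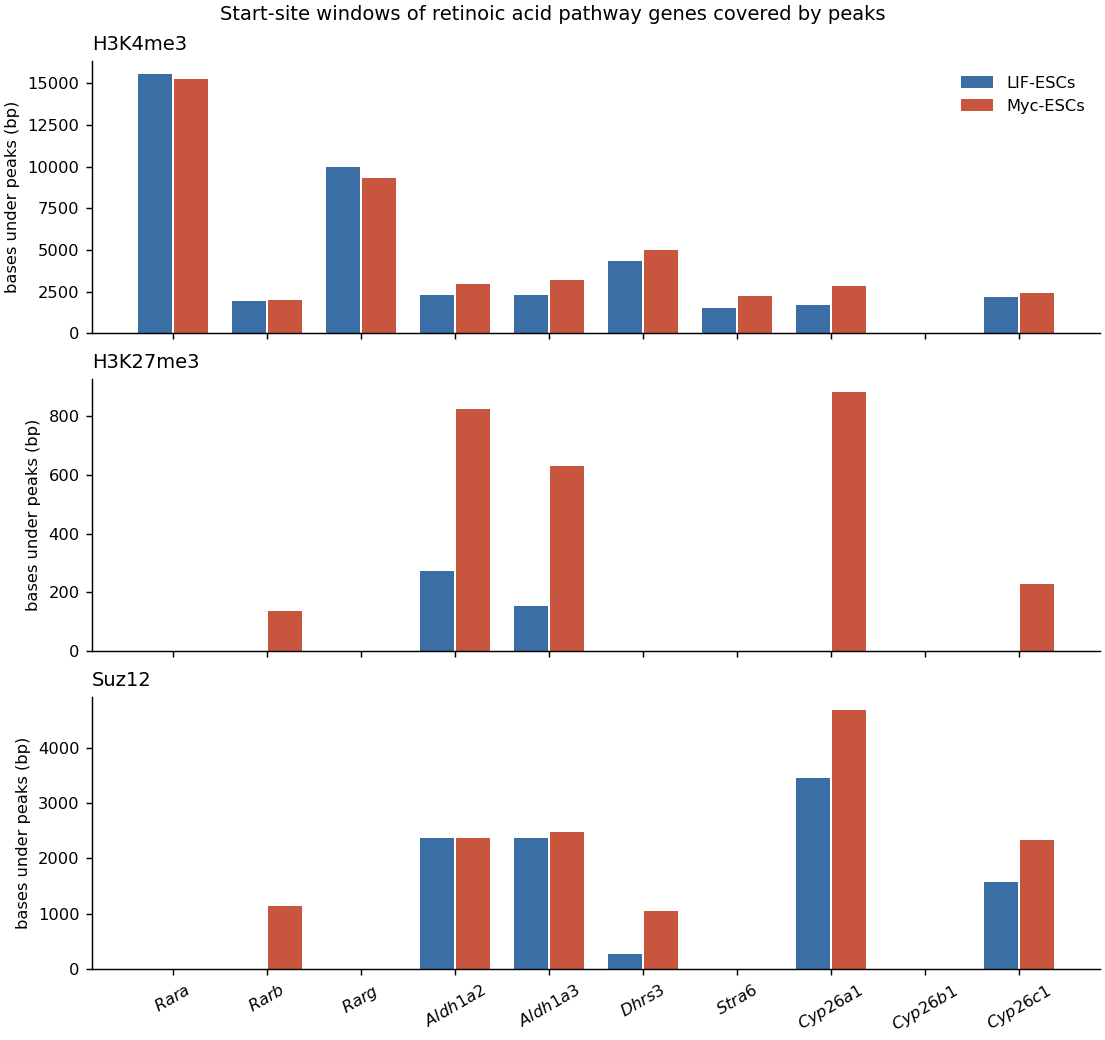
Bases under peaks (bp, vertical axes from 0) within the start-site windows of the 10 genes, 1 panel per antibody, with 1 bar per peak list (blue LIF-ESCs, red Myc-ESCs) and no error bars because there is 1 list per bar. H3K27me3 bars were higher in Myc-ESCs at all 5 genes that had any, and Rara and Rarg, whose several start sites give windows of 16418 and 10002 bp, had no bar for H3K27me3 or Suz12.

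In bases, the start-site windows of the members held 41769 bp of H3K4me3 in LIF-ESCs compared with 45181 bp in Myc-ESCs, 425 and 2702 bp of H3K27me3, and 10063 and 14078 bp of Suz12. Covered length was larger in Myc-ESCs for H3K4me3 at 7 members and smaller at 2, Rara and Rarg. For H3K27me3 it was larger at all 5 members that had any, but with lists of equal length 425 bp in LIF-ESCs stood against 682 bp in Myc-ESCs, at Aldh1a2 (272 and 344 bp), Aldh1a3 (153 and 0 bp) and Cyp26a1 (0 and 338 bp). For Suz12 it was larger at 5 and smaller at Aldh1a2, by 2 bp. Such directions were not counted over all genes. Median covered length among all marked genes also rose from the LIF-ESC to the Myc-ESC list. H3K4me3 went from 3369 to 3516 bp, H3K27me3 from 164 to 350 bp, Suz12 from 967 to 1337 bp. Each median is over the genes marked in that list, so the gene sets differ. In LIF-ESCs, 20 separate Suz12 peaks made up the member total and in Myc-ESCs 14, so the Myc-ESC peaks were fewer and longer.

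The receptors separated into those without Polycomb peaks and Rarb. Rara, the most widely expressed receptor of the family, lies at chr11:98937696-98974942 and has 5 curated start sites. In LIF-ESCs it carried H3K4me3 in broad domains of 10235 bp and 10860 bp, over the first 3 and the last 2 start sites. In Myc-ESCs the second domain was 10606 bp long, and the first was listed as separate peaks of 4379, 2834 and 1850 bp. Among genes with H3K4me3 at a start site the longest peak had a median of 3376 bp in LIF-ESCs compared with 3553 bp in Myc-ESCs, and Rara's lay at the 97.7th and 99.1st percentile. The nearest Suz12 peak to any Rara start site was 75790 bp away, in Myc-ESCs.

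Rarg, the third receptor, lies on the minus strand at chr15:102234938-102257522 and showed the longest H3K4me3 peaks of the 10 genes. The peak over its downstream start site, at position 102246500, was 14954 bp in LIF-ESCs compared with 13211 bp in Myc-ESCs. That placed it at the 99.2nd and 99.7th percentile of marked genes. The peak over its upstream start site was 5150 and 4322 bp. Neither Suz12 nor H3K27me3 came within 97894 bp of a Rarg start site in any list. Rara, Rarg and Stra6 thus shared 1 set of calls, H3K4me3 alone in both cultures, with 45.2% of all genes.

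**Figure D2:**
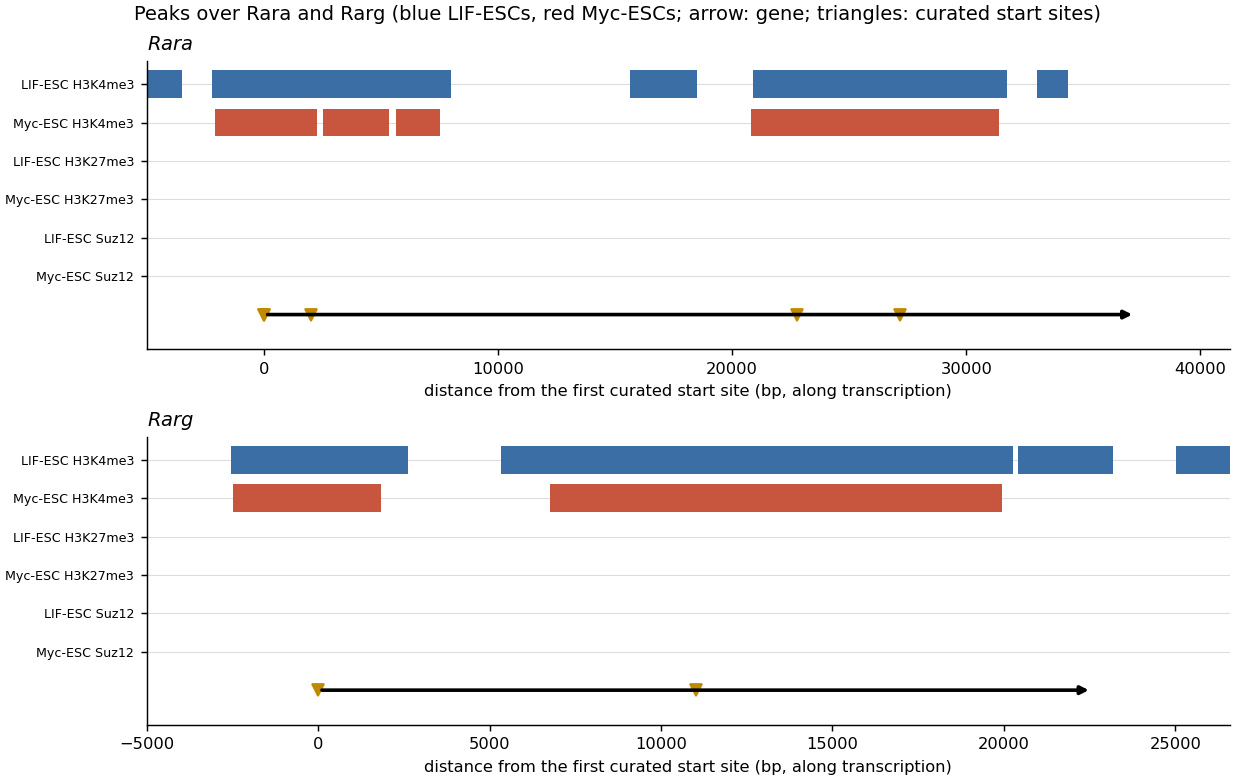
Peaks of the 6 lists (rows; blue LIF-ESCs, red Myc-ESCs) over Rara and Rarg, with distance from the first curated start site along transcription in bp on the horizontal axis, the gene as an arrow and curated start sites as triangles. The domains were broad for H3K4me3 in both cultures, reaching 14954 bp in Rarg, and the rows of H3K27me3 and Suz12 were empty.

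Rarb, the receptor gene that retinoic acid itself induces, spans 651493 bp on the minus strand (chr14:16430839-17082331). Its start site at position 16575476, next to the response element printed above, had an H3K4me3 peak of 1928 bp in LIF-ESCs compared with 2004 bp in Myc-ESCs. These were short peaks, at the 9.44th and 4.45th percentile of the longest H3K4me3 peaks of marked genes. No Suz12 peak was listed there in LIF-ESCs, where the nearest lay 1086237 bp away. In Myc-ESCs a Suz12 peak of 450 bp covered the start site and the response element (chr14:16575373-16575822, score 166), and a peak of 692 bp followed from 191 bp inside the gene (score 227). The score is −10 times the log10 of the peak caller's p-value, starts at 50 in these lists and was used only to rank peaks within a list. These peaks stood at the 67.9th and 73.8th percentile of the Myc-ESC Suz12 list.

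A Myc-ESC H3K27me3 peak of 136 bp lay 994 bp upstream of the Rarb start site, with a score of 56.4, the 25.4th percentile of its list. It lay 647 bp from the nearest Myc-ESC Suz12 peak and 260 bp from the nearest Myc-ESC H3K4me3 peak and overlapped neither. Its sequence is shown because it differs from the CpG-rich promoter beside it. It holds 0 CpG dinucleotides in 136 bases, and CpG would be in capitals.
Rarb H3K27me3 peak, chr14:16576470-16576605, plus strand: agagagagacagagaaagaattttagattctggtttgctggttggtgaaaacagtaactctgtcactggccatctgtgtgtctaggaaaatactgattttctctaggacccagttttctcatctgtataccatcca
The peak was lost at a minimum score of 100 and in lists of equal length, while the Suz12 call of Rarb in Myc-ESCs only held under all 6 alternative settings. The distal Rarb start site, at position 17082331, had no peak of any list within 2500 bp, and the first intron that follows it held 2 more H3K4me3 peaks in each culture, of 1652 and 1549 bp in LIF-ESCs and 2479 and 1718 bp in Myc-ESCs.

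Rarb's set of calls, H3K4me3 alone in LIF-ESCs and all 3 signals in Myc-ESCs, was shared by 321 genes (1.23%). Of the 4 members with H3K4me3 alone in LIF-ESCs, Rara, Rarb, Rarg and Stra6, only Rarb had Suz12 in Myc-ESCs. Among the 13220 genes with those LIF-ESC calls, 6.63% had Suz12 in Myc-ESCs and 2.46% had Suz12 together with H3K27me3.

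The synthesis genes Aldh1a2 and Aldh1a3, retinaldehyde dehydrogenases that catalyse the last step to retinoic acid, had all 3 signals in their start-site windows in each culture. Their LIF-ESC H3K27me3 calls rested on peaks with scores of at most 69.5, and a minimum score of 100 or a window of 1000 bp removed both. That set of calls was shared by 621 genes (2.37%). At Aldh1a2 (chr9:71215789-71296243), H3K4me3 covered 2308 bp in LIF-ESCs compared with 2929 bp in Myc-ESCs. The H3K4me3 peak also covers the start site of Gm3458, so the mark cannot be assigned to Aldh1a2 alone. Suz12 covered 2374 and 2372 bp of the window, all downstream of the start site, from 100 bp inside the gene in LIF-ESCs and from 55 bp inside it in Myc-ESCs. H3K27me3 covered 272 bp of the window in LIF-ESCs, in 2 peaks that lay beyond the end of the H3K4me3 peak, and 825 bp in Myc-ESCs, in 4 peaks with a highest score of 248. The strongest Myc-ESC peak was 534 bp long, at chr9:71217946-71218479 in intron 1, longer than the longest start-site peak of 91.9% of marked genes. Over the whole gene body the H3K27me3 peaks numbered 4 in LIF-ESCs and 10 in Myc-ESCs, all in intron 1.

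At Aldh1a3 (chr7:66390892-66427477, minus strand), H3K4me3 covered 2277 bp in LIF-ESCs compared with 3181 bp in Myc-ESCs. Suz12 covered 2377 bp in 5 peaks and 2486 bp in 4 peaks, and the peak over the start site was 273 bp long in the former and 1822 bp in the latter. H3K27me3 covered 153 bp in LIF-ESCs, in a single peak 1074 bp upstream that scored 57.6. In Myc-ESCs it covered 629 bp in 4 peaks, the highest with a score of 84.7. With lists of equal length the LIF-ESC peak stayed and the Myc-ESC peaks dropped out, so at Aldh1a3 the direction of the H3K27me3 difference turned with that choice.

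Dhrs3, a retinaldehyde reductase that turns retinaldehyde back into retinol, carried H3K4me3 and Suz12 in both cultures and H3K27me3 in neither, as did 682 genes (2.61%). Its H3K4me3 peak was 4371 bp in LIF-ESCs compared with 5063 bp in Myc-ESCs. Suz12 covered 275 bp in LIF-ESCs, at the third of its start sites (score 106), and 1047 bp in Myc-ESCs in peaks of 179 and 868 bp. The nearest H3K27me3 peak to a Dhrs3 start site was 66871 bp away, in Myc-ESCs.

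Stra6, the membrane receptor that takes up retinol, had the lowest-scoring H3K4me3 of the marked members in both lists. A peak of 1494 bp in LIF-ESCs had a score of 55.0 (3.14th percentile), and a peak of 2245 bp in Myc-ESCs had a score of 139 (27.3rd percentile). Both covered the first 2 of its 4 start sites. No Polycomb peak was listed within 61811 bp of a Stra6 start site.

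**Figure D3:**
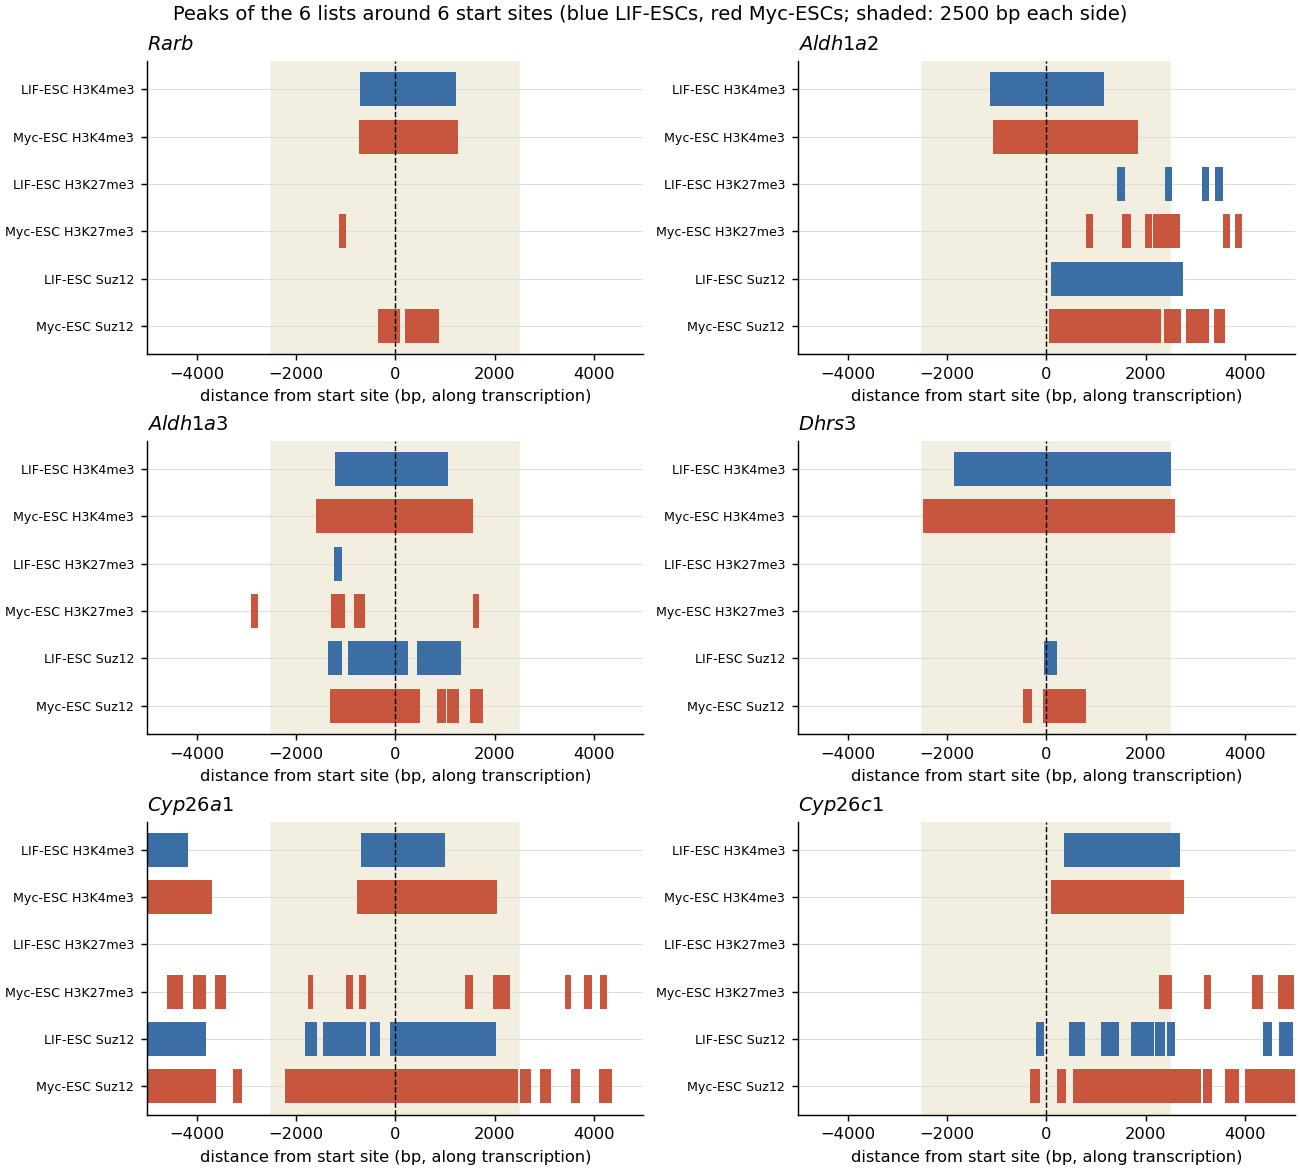
Peaks of the 6 lists (rows; blue LIF-ESCs, red Myc-ESCs) around the start site of each member with Suz12 there, with distance from the start site along transcription in bp on the horizontal axis and the window of 2500 bp on either side shaded. Rarb had no Suz12 bar in LIF-ESCs, and Rarb, Cyp26a1 and Cyp26c1 had H3K27me3 bars inside the window in Myc-ESCs and none in LIF-ESCs.

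The degradation genes Cyp26a1 and Cyp26c1 encode cytochrome P450 enzymes that clear retinoic acid and lie side by side on chromosome 19, in the same orientation and 4500 bp apart. Both carried H3K4me3 and Suz12 in LIF-ESCs and all 3 signals in Myc-ESCs, a set of calls found at 1224 genes (4.68%). At Cyp26a1 (chr19:37697808-37701536), the H3K4me3 peak was 1693 bp with a score of 67.1 in LIF-ESCs and 2832 bp with a score of 175 in Myc-ESCs. Suz12 covered 3456 bp of the start-site window in LIF-ESCs, in 5 peaks. In Myc-ESCs it covered 4692 bp in a single peak (chr19:37695586-37700277, score 3100), longer than the longest start-site peak of 92.9% of genes with Suz12. Both Cyp26a1 copies of the response element lie under that peak. H3K27me3 covered 0 bp in LIF-ESCs compared with 883 bp in Myc-ESCs, in 5 peaks of 114 to 338 bp, and the highest score was 111.

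At Cyp26c1 (chr19:37685680-37693307), the H3K4me3 peak was 2343 bp in LIF-ESCs compared with 2698 bp in Myc-ESCs and began 350 and 85 bp inside the gene. Suz12 covered 1581 bp of the window in LIF-ESCs in 6 peaks and 2339 bp in Myc-ESCs. H3K27me3 covered 0 bp in LIF-ESCs compared with 229 bp in Myc-ESCs, from a peak that began 2272 bp inside the gene. A window of 1000 bp, a minimum score of 100 and lists of equal length each removed this call. Of all member peaks, those closest to the edge of the 2500 bp window were a LIF-ESC Suz12 peak of Aldh1a2 from 2460 bp, inside it, and a Myc-ESC Suz12 peak of Cyp26a1 from 2519 bp, outside it. The strongest H3K27me3 peak of the gene, with a score of 133, lay in intron 5.

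Taken as a locus of 20857 bp, from 2500 bp before Cyp26c1 to 2500 bp beyond Cyp26a1 (chr19:37683180-37704036), the pair had 17 H3K27me3 peaks in Myc-ESCs and 0 in LIF-ESCs. The Myc-ESC peaks covered 3695 bp, or 17.7% of the locus. With lists of equal length, 4 of the 17 were left, and they covered 1252 bp (6.00%). Suz12 covered 34.2% of the locus in LIF-ESCs and 63.7% in Myc-ESCs, in 14 and 15 peaks. H3K4me3 covered 25.4% and 35.6%, with 3 peaks in each culture. In the stretch between the genes alone, Suz12 covered 47.1% and 72.6% and H3K27me3 0% and 24.4%.

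**Figure D4:**
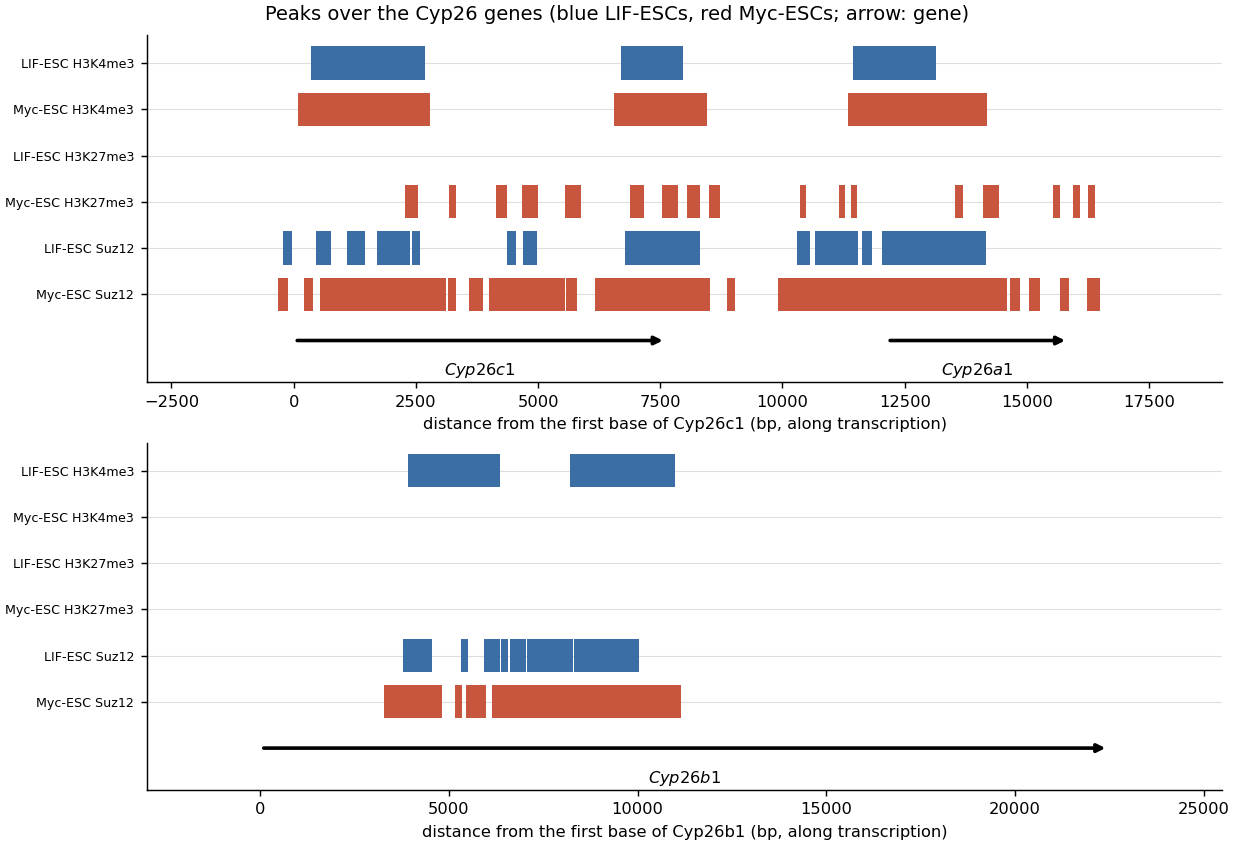
Peaks of the 6 lists (rows; blue LIF-ESCs, red Myc-ESCs) over Cyp26c1 and Cyp26a1 (upper panel) and Cyp26b1 (lower panel), with distance from the first base of Cyp26c1 or Cyp26b1 along transcription in bp on the horizontal axis and genes as arrows. The upper panel had 17 H3K27me3 bars in Myc-ESCs and 0 in LIF-ESCs, and in the lower panel Suz12 lay inside the gene and H3K4me3 was listed in LIF-ESCs only.

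Cyp26b1, the third degradation enzyme (chr6:84571414-84593908, minus strand), had no peak of any list at its 2 curated start sites, as did 34.7% of all genes. Its signal lay inside the gene. Suz12 covered 4900 bp of the body in LIF-ESCs in 7 peaks and 7249 bp in Myc-ESCs in 5 peaks, the longest of 5017 bp with a score of 3100. Together the Myc-ESC peaks spanned chr6:84582756-84590623, 7868 bp that begin 3187 bp from the nearest curated start site. The CpG ratio was 0.65 in that span and 0.15 in the 5001-base window of the start site. H3K4me3 was listed in the same span in LIF-ESCs, in peaks of 2789 and 2456 bp with scores of 104 and 94.3, and in Myc-ESCs no H3K4me3 peak lay over the gene. RefSeq also predicts start sites at positions 84586908 and 84587720, within the span. Counted with predicted transcripts, Cyp26b1 had H3K4me3 in LIF-ESCs only and Suz12 in both cultures. No H3K27me3 peak lay within 592939 bp of its curated start sites in either culture.

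Over gene bodies, H3K4me3 was listed in 10 members in LIF-ESCs and 9 in Myc-ESCs, against 64.2% and 65.3% of all genes, the difference being Cyp26b1. H3K27me3 was listed in 1 member (Aldh1a2) and in 5, against 3.79% and 10.7%. Suz12 was listed in 6 and 7 members, against 12.0% and 14.6%.

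The 15 Myc-ESC H3K27me3 peaks at member start sites lay mostly on Suz12 peaks. They came from 5 genes, with 5 peaks at Cyp26a1 and 4 each at Aldh1a2 and Aldh1a3, so neighbouring peaks are not separate observations. Of the 15 peaks, 14 overlapped a Myc-ESC Suz12 peak, 13 a LIF-ESC Suz12 peak and 10 a Myc-ESC H3K4me3 peak. Among all 6971 Myc-ESC H3K27me3 peaks at start sites, 62.7%, 45.7% and 60.3% did. The Rarb peak overlapped none of the 3, and none of the 15 covered a start site, the nearest being 598 bp from that of Cyp26a1. Dhrs3, Cyp26a1 and Cyp26c1 had H3K4me3 with Suz12 throughout and lacked H3K27me3 in LIF-ESCs. Of these 3, Cyp26a1 and Cyp26c1 had H3K27me3 in Myc-ESCs and Dhrs3 did not. Among the 1906 genes with those calls, 64.2% had H3K27me3 in Myc-ESCs.

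Other genes of retinoid handling, a list of 31 with RXR receptors, binding proteins and dehydrogenases, had H3K4me3 at 18 start sites in each culture (58.1%, against 62.2% and 63.3% of all genes). H3K27me3 lay at 2 in LIF-ESCs compared with 4 in Myc-ESCs (6.45% and 12.9%, against 3.82% and 10.7%), and Suz12 at 5 compared with 7 (16.1% and 22.6%, against 12.1% and 14.6%). These shares were near those of all genes. H3K27me3 was listed in Myc-ESCs only at 3, against 7.65% of all genes. They were the retinoic acid binding proteins Crabp1 and Crabp2 and Lrat, which esterifies retinol. Crabp1 and Lrat had the same calls as Cyp26a1 and Cyp26c1. The H3K27me3 peaks covered 87 bp at Crabp1, 135 bp at Crabp2 and 268 bp at Lrat, beside 883 bp at Cyp26a1, 229 bp at Cyp26c1 and 136 bp at Rarb. Their highest scores were 77.4 at Crabp1, 56.6 at Crabp2 and 57.8 at Lrat. All lay below 104, the lowest Myc-ESC H3K27me3 score kept in lists of equal length. Named after their values were seen, Cyp1b1 had H3K27me3 in LIF-ESCs only, and Rxra and Rdh10 had Suz12 in Myc-ESCs only. Rdh10 makes retinaldehyde from retinol, the substrate of the Aldh1a enzymes.

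A list of 15 genes that respond to retinoic acid, among them Hox genes and developmental transcription factors, is described by its counts and by the values of some of its genes, without a test. H3K4me3 lay at 13 in LIF-ESCs compared with 12 in Myc-ESCs (86.7% and 80.0%, against 62.2% and 63.3% of all genes). H3K27me3 lay at 6 and 10 of the 15 (against 3.82% and 10.7%), and Suz12 at 11 and 12 (73.3% and 80.0%, against 12.1% and 14.6%). The list was chosen with earlier results of these data known. H3K27me3 in Myc-ESCs only was listed at 4 of the 15, against 7.65% of all genes. Among the 4 were Hoxb1, Foxa1 and Gata6, which had the calls of Cyp26a1 and Cyp26c1. The mark covered 414 bp at Hoxb1 in 1 peak, 697 bp at Foxa1 in 3 peaks and 284 bp at Gata6 in 2 peaks. Its highest score was 154 at Hoxb1, 93.8 at Foxa1 and 73.1 at Gata6. Lists of equal length kept Myc-ESC H3K27me3 peaks from a score of 104, so they would drop the calls of Foxa1 and Gata6. No gene of either list had Rarb's calls. Of genes chosen after their values were seen, Cdx1 and Tgm2 had Suz12 in Myc-ESCs only.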

How the data were processed

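The authors aligned reads to GRCm38 with Bowtie2 2.2.3, kept uniquely placed reads and called peaks with MACS 1.4.2 at default settings. They deposited 1 list per culture and antibody with a score for each peak, −10 times the log10 of the p-value, and no counts. In 5 of the 6 lists peaks share a score of exactly 3100 (19 to 4006 a list) and cannot be ranked among themselves. RNA measurements were not analysed here.

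Peaks were set against 45756 curated RefSeq transcripts (GRCm38.p6) on 21 chromosomes with Python 3.11.15, numpy 2.4.6 and pysam 0.24.0, and plotted with matplotlib 3.10.9. Genes were called marked where at least 1 bp of a peak fell in the start-site window. Promoters came from RefSeq and other sequence from the same build. The interval code was tested on simulated data. No test was run.

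The 10 members and both further lists were chosen with earlier results of these data known. All members were named, and from the lists genes with H3K27me3 in Myc-ESCs only or with the calls of Rarb or Cyp26a1, up to 8 of each. Alternatives were a minimum score of 100, lists of equal length, windows of 1000 and 5000 bp, all RefSeq transcripts and an overlap of 100 bp. Some items of the lists and sequences are not reported here.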

Additional observations from a re-analysis of the deposited data

How the results depend on the processing

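Of 120 values recomputed under the 6 alternatives, 96 stayed within 1.5 times the reported value and 24 did not. Only sizes were compared, so a count could stay within that range while its members changed. H3K27me3 in Myc-ESCs only, at Rarb, Cyp26a1 and Cyp26c1 in the main setting, is an example. At a minimum score of 100 it was listed at 2, Aldh1a2 and Cyp26a1. In windows of 1000 bp it was listed at 4, Rarb, Aldh1a2, Aldh1a3 and Cyp26a1. A minimum score of 100 left 0 members with H3K27me3 at a start site or over the body in LIF-ESCs, and for Myc-ESCs 2 at start sites and 3 over bodies, with 0 and 682 bp covered, and put H3K4me3 in Myc-ESCs only at 2 members (Stra6 and Cyp26a1). Lists of equal length, which kept Myc-ESC H3K27me3 peaks from a score of 104, gave the same 2 and 3 members and 682 bp, 1 member with H3K27me3 in Myc-ESCs only, 1 in LIF-ESCs only (Aldh1a3), and 1 with H3K4me3 in Myc-ESCs only (Stra6). Windows of 1000 bp gave 0 members and 0 bp of H3K27me3 in LIF-ESCs, 652 bp of it in Myc-ESCs, 23871 and 24614 bp of H3K4me3, and 5123 and 7636 bp of Suz12. Windows of 5000 bp gave 747 and 5318 bp of H3K27me3. They and all RefSeq transcripts put H3K4me3 in LIF-ESCs only at 1 member, Cyp26b1. Fewer peaks or shorter windows account for the lower values by construction. Shares over all genes are given for the main setting only, so the counts under the alternatives have no such share beside them. No replicate could be left out, and no paired analysis was possible because each culture and antibody has 1 list. Depth is unknown, so a missing peak means that none was called, not that the mark was absent.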
